A study of Mus musculus with 21 samples.

Results

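Spinal cord of mice lacking TDP-43 in the oligodendrocyte lineage was compared with Cre-free cord at postnatal day 21, gene by gene, with 8 of the 21 libraries of the series. The 4 conditional knockouts (cKO) had Cnp-Cre with both Tardbp alleles floxed, and the 4 controls also had both alleles floxed but lacked Cre. The 4 day 21 heterozygous mice (cHET), which carried Cnp-Cre and 1 floxed allele, entered the same fit and are given beside the comparison. All were C57BL/6, with 2 females and 2 males per genotype, and members were taken by genotype and age alone. Each library is whole spinal cord of 1 mouse. Genes were tested if they reached 5 normalized scaled reads per base in at least 4 of the 12 day 21 libraries, which kept 17989 of 25127. Cnp-Cre is a Cre recombinase placed in the Cnp locus, which is active in oligodendrocytes and their committed precursors and, outside the cord, in Schwann cells. The knockout therefore differed from these controls in Cre and in the Cnp locus as well as in Tardbp, and only cHET carried Cre without loss of both Tardbp alleles.

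TDP-43, the product of Tardbp, is an RNA-binding protein of the nucleus that controls splicing and RNA stability, and its loss from the nucleus marks amyotrophic lateral sclerosis and much of frontotemporal dementia. Oligodendrocytes wrap axons in myelin, a membrane very rich in cholesterol and galactolipids. Cholesterol does not cross from blood into the central nervous system, so the enzymes of its synthesis are made in quantity in the cord while myelin is laid down. Microglia and astrocytes, the resident immune and support cells, take up and export the lipid that myelin turnover releases.

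Log2(value + 0.5) was fitted with limma over the 12 day 21 libraries, with p adjusted by the Benjamini-Hochberg method across the whole table and a threshold of 0.05. Levels are normalized scaled reads per base, a unit per length, and add up to 26908290 to 29111983 per cKO library and 27817193 to 29082102 per control library. How many reads lie behind a value is unknown. Markers of cord cells, such as Cnp, Gfap, Csf1r and Slc6a5 below, were present in every library, and the Y-linked genes matched the labelled sex in all 12. Within genotypes, the libraries numbered 4 of cKO, cHET and control deviated from their groups together. The correlation of their deviations was 0.44 to 0.61 across 11169 genes with a mean of at least 200, against -0.49 to 0.39 for all other pairs of libraries from different genotypes. The 4 pairs of a cKO and a control library with the same number, which have the same sex, were at 0.12 to 0.45. The list of forebrain genes stood apart in cHET 1, with a mean log2 level of 7.98 there, against 5.63 to 6.10 in the other 11 libraries, and without cHET 1 the cKO against control comparison below called 4696 genes. Genes of the caudal Hox10 and Hox11 groups, which mark the lumbar and sacral cord, also varied between libraries. Hoxc11 was at 183, 75.9, 3.1 and 207 in cKO and 238, 66.4, 246 and 237 in control libraries, so cKO 3 had almost none and cKO 2 and control 2 were low. These Hox genes were chosen after their values were seen. Counts of 3 or more called list members that change by over 1.5 times without cKO 2 and cKO 3, or without the 3 libraries numbered 4, are given beside the result. As cKO 2 and cKO 3 are also the 2 male cKO libraries, sex and cord level cannot be told apart for them.

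Tardbp (ENSMUSG00000041459; GRCm38 chromosome 4, 148612382 to 148627019) was at 1731, 1880.5, 1753 and 1639 in cKO cord, against 2198, 2283, 2415 and 2155 in control cord, and the groups did not overlap. It fell by 0.37 ± 0.06 (SE) on the log2 scale (adjusted p = 3.3e-04), to 77.4% of the control mean, in whole cord that also holds cells without Cnp-Cre. Cnp (ENSMUSG00000006782; chromosome 11, 100574904 to 100591729), which encodes a myelin enzyme and carries the Cre, was at 47387, 52006, 54278 and 57530.2 in cKO libraries. Its control values were 84306, 87736, 76936 and 88022, and the cHET values of 44181 to 49396 also lay below every control. Cnp fell by 0.68 ± 0.07 in cKO against control (adjusted p = 4.2e-06) and by 0.85 ± 0.07 in cHET against control (adjusted p = 9.5e-05). Cnp thus fell in both genotypes that carry Cre, and it is 1 of the myelin genes counted as lower below.

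Of the 17989 tested genes, 4834 (26.9%) were called in cKO against control, 2620 higher (14.6%) and 2214 lower (12.3%). The rises were the larger changes. At least 2-fold differences were called for 846 genes higher (4.7%) and 111 lower (0.617%), and at least 4-fold differences for 338 higher and 28 lower. For 4937 genes (27.4%) the 4 cKO and 4 control libraries did not overlap. After quantile normalization the calls were 2313 higher and 3002 lower, so that the share of higher calls was 43.5% instead of 54.2%. In the same fit 4059 genes (22.6%) were called in cKO against cHET, and 2 genes (0.0111%), Cnp and Hapln2, in cHET against control, where 1284 genes had an unadjusted p under 0.05. The last count was 35 in the authors' deposited table and 30 without the libraries numbered 4. The 3 comparisons share libraries and are set side by side for that reason.

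**Figure D1:**
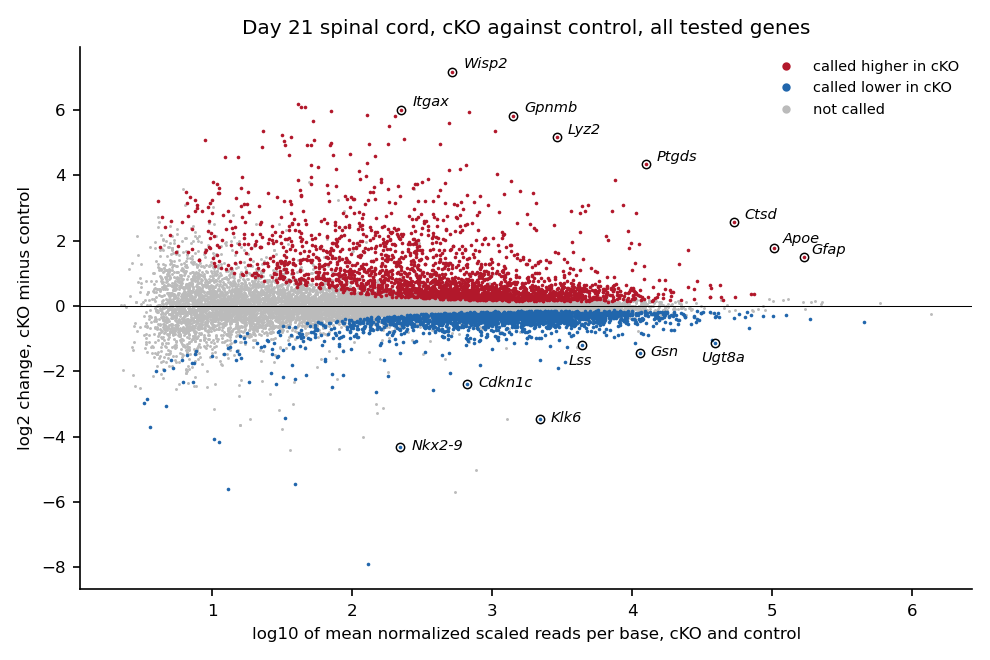
Mean level (log10 of the mean of cKO and control values, in normalized scaled reads per base) against the log2 change in cKO minus control for 17989 tested genes, with 2620 called higher in red, 2214 called lower in blue and the rest in grey. Circled genes are described in the text, and the upper cloud reaches farther from 0 than the lower one (846 genes at least 2-fold higher, 111 lower).

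The highest log2 change under the naming rule was that of Wisp2. Wisp2 (chromosome 2, 163820861 to 163833146), which encodes a secreted matricellular protein, was at 1039.5, 1558, 956 and 569 in cKO cord and at 4.71, 4.76, 11.2 and 5.85 in control cord. No library of one group came near the other, and Wisp2 rose by 7.17 ± 0.59 on the log2 scale (adjusted p = 5.5e-07). Itgax, which encodes the integrin CD11c of activated microglia and dendritic cells, was at 471, 622, 461 and 210.4 in cKO and 2.39, 8.98, 4.66 and 11.2 in control libraries (6.01 ± 0.42, adjusted p = 1.2e-07). Gpnmb, a glycoprotein of lipid-laden phagocytes, was at 3055, 3192, 3083 and 1720.3 in cKO and 43.3, 57.6, 41.6 and 45.6 in control libraries (5.83 ± 0.31, adjusted p = 6.8e-09). In all 3 genes the lowest cKO value was that of cKO 4. Lilrb4a, an inhibitory immune receptor, Cst7, a cysteine protease inhibitor, and Rgs1, a regulator of chemokine receptor signalling, rose by 5.93, 5.62 and 5.85. Hcar2, the receptor for butyrate and niacin, was at 52.9 to 101 in cKO and 0 to 3.06 in control libraries (6.19 ± 0.62). Tnfsf11, the ligand RANKL, rose by 5.65 ± 0.61. Bcl2a1d, a survival factor of leukocytes, and Atp6v0d2, a subunit of the proton pump of phagocytes, rose by 6.09 and 6.09. Arsi, an arylsulfatase, and Ly9, an immune receptor, rose by 5.97 and 5.80. Some control libraries were at 0 for Hcar2, Bcl2a1d, Atp6v0d2 and Tnfsf11, so these log2 values depend on the pseudocount.

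The lowest changes included Nkx2-9, of the lineage transcription factor list, and Klk6 and Cdkn1c, of the mature oligodendrocyte list. Nkx2-9, a homeobox factor of the ventral cord, was at 16.0, 19.6, 24.3 and 23.7 in cKO libraries, against 472, 487, 309.8 and 416 in control libraries, and fell by 4.30 ± 0.17 (adjusted p = 7.0e-10). Klk6, a secreted serine protease made by mature oligodendrocytes of the cord, was at 249.5, 457, 566 and 260.4 in cKO and 3981, 4133, 4112 and 3692 in control libraries. It fell by 3.46 ± 0.20 (adjusted p = 1.6e-08), and its cHET values of 4562 to 5198 were above every control value. Cdkn1c, an imprinted inhibitor of the cell cycle that differentiated oligodendrocytes express, was at 267, 173, 168 and 251 in cKO and 1166, 1191, 915 and 1159 in control libraries (-2.39 ± 0.15, adjusted p = 4.5e-08). Dnah8, an axonemal dynein heavy chain, fell by 2.64 ± 0.14, to 34.3 to 51.9 in cKO libraries, against 237 to 287 in control libraries. The lowest log2 change of all was that of Rps27a-ps2, a processed pseudogene of a ribosomal protein gene, at 0.124, 0, 0.0257 and 1.7 in cKO and 63.9, 108, 558 and 306 in control libraries. Reads of such a copy can be shared with its parent gene, so this value is uncertain. The unnamed gene model Gm49387 was listed at 0 in all cKO libraries and at 14.1 to 37.0 in control libraries. Gkn3, which arterial endothelium of the brain expresses, was at 3.24 to 13.2 in cKO and 34.7 to 65.3 in control libraries (-2.39 ± 0.37, adjusted p = 2.7e-04). Pcdh12, an endothelial protocadherin, fell by 2.47 ± 0.33 in cKO, and its cHET libraries, at 24.2 to 90.2, lay between 16.4 to 23.8 in cKO and 95.0 to 144 in control libraries.

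Cholesterol synthesis was lower along nearly its whole length. Of 8 tested genes of the mevalonate arm, which builds farnesyl diphosphate from acetyl-CoA, 7 fell and none rose, with a median log2 change of -0.70. Of 12 genes that turn farnesyl diphosphate into squalene, lanosterol and cholesterol, 12 fell, with a median of -0.77. Over all tested genes the median was -0.01 and 12.3% fell. The summed level of the second set lay at 36369.5 to 42584 for cKO, at 67829 to 83661 for cHET and at 62089 to 73033 for control libraries, and the cKO range did not meet either of the others. In bulk tissue, fewer cells of a type and less RNA per cell cannot be told apart, here and in every result that follows.

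Lss, lanosterol synthase, which closes the sterol rings, had the largest fall of the pathway. It was at 2736, 2558, 2455 and 2799 in cKO libraries, against 4477, 6203, 7123 and 6779.6 in control libraries, and fell by 1.20 ± 0.14 (adjusted p = 1.6e-05). Hmgcs1, the cytosolic HMG-CoA synthase near the start of the mevalonate arm, was at 22101, 23385, 26735 and 24441 in cKO and 40416, 49779.8, 52426 and 54970.2 in control libraries (-1.03 ± 0.09, adjusted p = 1.4e-06). The mean of Hmgcs1 differs between the per-library values and the authors' deposited table, which gives a log2 effect of -1.05 with a q of 3.3e-18. Cyp51, the lanosterol demethylase, fell by 0.98 ± 0.08, and Sc5d, which introduces a late ring double bond, fell by 0.90 ± 0.07, to 2452 to 2688 in cKO against 4466 to 5186 in control libraries. Sqle, the squalene epoxidase, fell by 0.84 ± 0.07. Idi1 and Fdps, at the end of the mevalonate arm, fell by 0.78 and 0.75. Pmvk, phosphomevalonate kinase, was the one gene of both sets that was not called, at 1589, 1593, 1566 and 1983 in cKO and 1747, 1853, 1958 and 2010.3 in control libraries (-0.17 ± 0.08, adjusted p = 0.11). Its highest cKO library was cKO 4, and without it Pmvk was called (-0.26, adjusted p = 0.0049). None of the 20 genes was called in cHET against control, where the medians were 0.08 and 0.08, and all 20 were called in cKO against cHET.

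**Figure D2:**
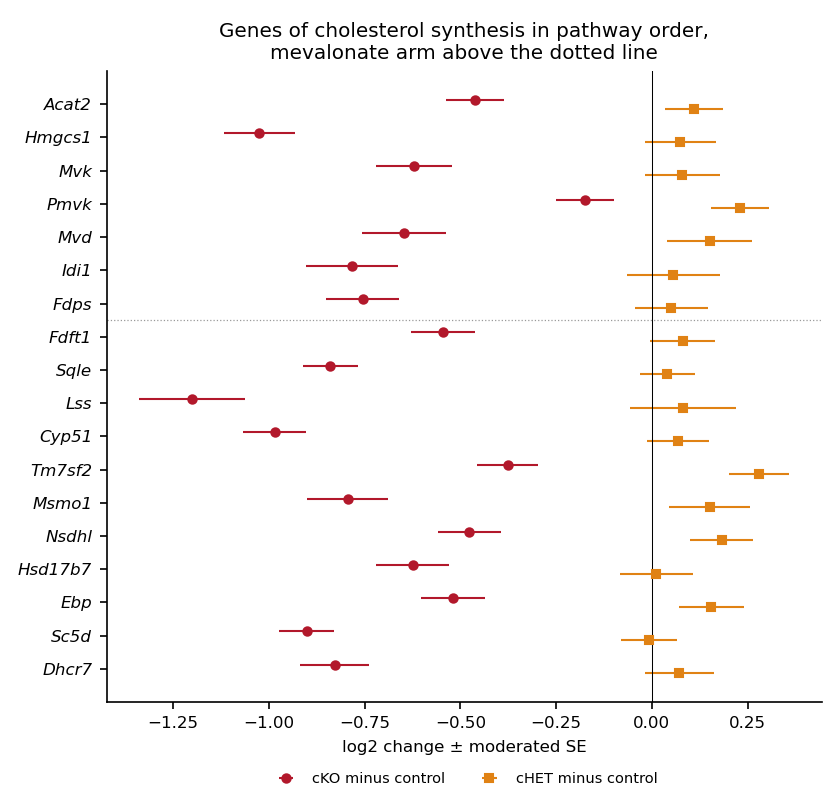
Log2 change with its moderated SE for 18 of the 20 genes of cholesterol synthesis in pathway order from top to bottom, as cKO minus control (red circles) and cHET minus control (orange squares), 4 libraries per genotype. Every red circle lies left of 0, from -1.20 for Lss to -0.17 for Pmvk, and the orange squares lie between -0.01 and 0.28.

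Sterol enzymes are induced by SREBP2, the product of Srebf2, acting at promoter elements beside boxes bound by the factor NF-Y, so promoter windows of the genes that fell together were examined. RefSeq windows (GRCm38.p6, 250 bases before to 50 after the start) were found for 15 of the 20 genes. The letters TCACNCCA, a form of the sterol regulatory element, were searched on both strands and occurred in 2 of the 15, Hmgcs1 and Msmo1, and in 4.62% of 12741 tested genes with a window. The letters CCAAT, the NF-Y box, occurred on either strand in 14 of the 15 and in 42.4% of all. Shown are the members with the smallest p for each set of letters, 5′ to 3′ along the gene, with matches to either in capitals (ATTGG is CCAAT on the other strand). The windows are chr13:119690101-119690400 (plus strand, whole) for Hmgcs1, chr8:64733696-64733795 (minus strand, part) for Msmo1, chr9:42264265-42264364 (minus strand, part) for Sc5d and chr5:4104667-4104766 (minus strand, part) for Cyp51.
Hmgcs1: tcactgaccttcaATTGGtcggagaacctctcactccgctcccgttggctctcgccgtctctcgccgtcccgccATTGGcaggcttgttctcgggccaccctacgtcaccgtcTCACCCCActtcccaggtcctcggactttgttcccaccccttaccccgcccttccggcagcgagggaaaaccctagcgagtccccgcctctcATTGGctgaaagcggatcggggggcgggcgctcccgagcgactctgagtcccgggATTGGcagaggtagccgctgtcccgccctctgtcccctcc
Msmo1: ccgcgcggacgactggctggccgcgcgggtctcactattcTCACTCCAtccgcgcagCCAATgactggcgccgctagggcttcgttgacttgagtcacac
Sc5d: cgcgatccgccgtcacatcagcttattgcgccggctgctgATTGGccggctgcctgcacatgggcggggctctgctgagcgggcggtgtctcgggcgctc
Cyp51: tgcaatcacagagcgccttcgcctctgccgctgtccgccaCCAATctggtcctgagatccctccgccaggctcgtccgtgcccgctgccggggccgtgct
The Hmgcs1 window held 4 CCAAT matches and 1 match to TCACNCCA, at position -137 from the start. In the stretches shown no match to one set of letters overlaps a match to the other. A match describes the letters of the window and not binding.

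Regulators and uptake of sterol did not move as one group. Of 15 tested genes 3 rose and 4 fell, with a median of 0.13. Among those that fell were Insig1 and Insig2, which retain the SREBP complex in the endoplasmic reticulum, and Stard4, a sterol carrier. Insig1 was at 3460.4, 3590.3, 3168 and 4235 in cKO libraries, against 4561, 4715, 6582 and 6146 in control libraries (-0.60 ± 0.12, adjusted p = 0.0017). Srebf1, which encodes the fatty acid regulator SREBP1, went the other way, at 1180.0, 1463, 1155 and 1336 in cKO and 794, 797, 1019 and 795 in control libraries (0.59 ± 0.11, adjusted p = 0.0012). Srebf2 itself has no per-library values here, and the authors' deposited table gives a log2 effect of -0.39 with a q of 2.0e-09.

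Enzymes of fatty acid synthesis and elongation fell in 9 of 16 cases, and none rose. Acly, which makes cytosolic acetyl-CoA, and Acaca, the acetyl-CoA carboxylase, fell by 0.51 ± 0.07 and 0.80 ± 0.12. Elovl6, an elongase of saturated chains, was at 1883, 2160.3, 2646 and 1862 in cKO and 3160.1, 3862, 3639.7 and 3718 in control libraries (-0.76 ± 0.10, adjusted p = 6.7e-05). Scd1 and Scd2, the desaturases that make oleate, fell by 0.55 and 0.38, and Scd2 was among the 8 largest losses of mean level of all called genes. Fasn, the fatty acid synthase, was at 2748, 2911, 3103 and 5289 in cKO and 3324, 3821, 3680.5 and 4082 in control libraries and was not called (-0.13 ± 0.18, adjusted p = 0.63). It was highest in cKO 4, and without that library it fell (-0.35, adjusted p = 0.046).

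The galactolipids of myelin depend on Ugt8a, the galactosyltransferase of galactosylceramide, and Fa2h, which hydroxylates its fatty acid. Ugt8a was at 19955, 25665, 31372 and 21889.7 in cKO libraries, against 50971, 54616, 50718 and 55934 in control libraries, and fell by 1.12 ± 0.11 (adjusted p = 3.1e-06). Fa2h fell by 0.84 ± 0.08, to 7728 to 10053 in cKO libraries, against 14544 to 16259 in control libraries (adjusted p = 1.4e-06). Gal3st1, which adds the sulfate of sulfatide, fell by 0.37 ± 0.09 (adjusted p = 0.0079). Earlier steps, which build the ceramide backbone, gave smaller differences. Sptlc1 and Sptlc2, subunits of serine palmitoyltransferase, were not called, at -0.11 ± 0.07 (adjusted p = 0.26) and -0.16 ± 0.08 (adjusted p = 0.16). Cers2, the ceramide synthase of very long chains, was not called, at 0.12 ± 0.07 (adjusted p = 0.23). In all, 4 of 12 genes of this list fell and none rose.

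Genes of lipid export and storage were mostly higher. Of 16 genes of sterol efflux and apolipoproteins 11 rose and 1 fell, with a median of 0.66 and a summed level of 178665 to 207486 in cKO against 61058 to 70147 in control libraries. Apoe (chromosome 7, 19696109 to 19699188), the main lipid carrier of the central nervous system, was at 155991, 173382, 161703 and 147844 in cKO and 47931, 45574, 41373 and 50251 in control libraries. It rose by 1.79 ± 0.08 (adjusted p = 1.4e-09), and its cHET values of 44554 to 54665 lay in the control range or close above it. Abca1, the transporter that loads lipid onto apolipoproteins, was at 4573, 5062, 4233 and 3184 in cKO and 1199.6, 1283, 1385 and 1433 in control libraries (1.67 ± 0.14, adjusted p = 6.5e-07). The Apoe neighbours Apoc1 and Apoc4 rose by 3.09 and 2.43, and Apoc2 was at 52.4 to 91.2 in cKO and 0 to 5.1 in control libraries (5.18 ± 0.77). Ch25h, which makes 25-hydroxycholesterol, was at 175, 263, 377 and 209 in cKO and 7.46, 5.1, 8.09 and 9.92 in control libraries (4.95 ± 0.39, adjusted p = 4.1e-07). Mylip, a ubiquitin ligase that sterol-activated receptors induce, rose by 1.20 ± 0.10. Cyp27a1, the sterol 27-hydroxylase, was the one member that fell, at 395 to 529.7 in cKO and 767 to 932 in control libraries (-0.88 ± 0.09, adjusted p = 7.0e-06).

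Of 14 tested genes of lipid droplets 7 rose and none fell. Lpl, lipoprotein lipase, was at 3791, 4337, 3902 and 2667 in cKO and 361, 447, 389 and 434 in control libraries (3.15 ± 0.13, adjusted p = 6.8e-10), and Plin2, the common droplet coat protein, at 664, 636, 638 and 603 in cKO and 229, 214, 188 and 230.0 in control libraries (1.56 ± 0.09). Plin4, a perilipin of tiny droplets, rose most, by 4.04 ± 0.53 (adjusted p = 6.0e-05). It was at 1852, 2641, 1261 and 2410.4 in cKO, 522, 834, 490.1 and 77.5 in cHET and 159.9, 116, 85.9 and 126 in control libraries, so 3 of 4 cHET libraries also lay above every control and cHET 4 did not. Cd36, a fatty acid receptor, and Pnpla2, the main triglyceride lipase, rose by 1.84 and 0.91. With a minimum mean of 50 the count of droplet genes called was 4, because fewer members were tested.

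**Figure D3:**
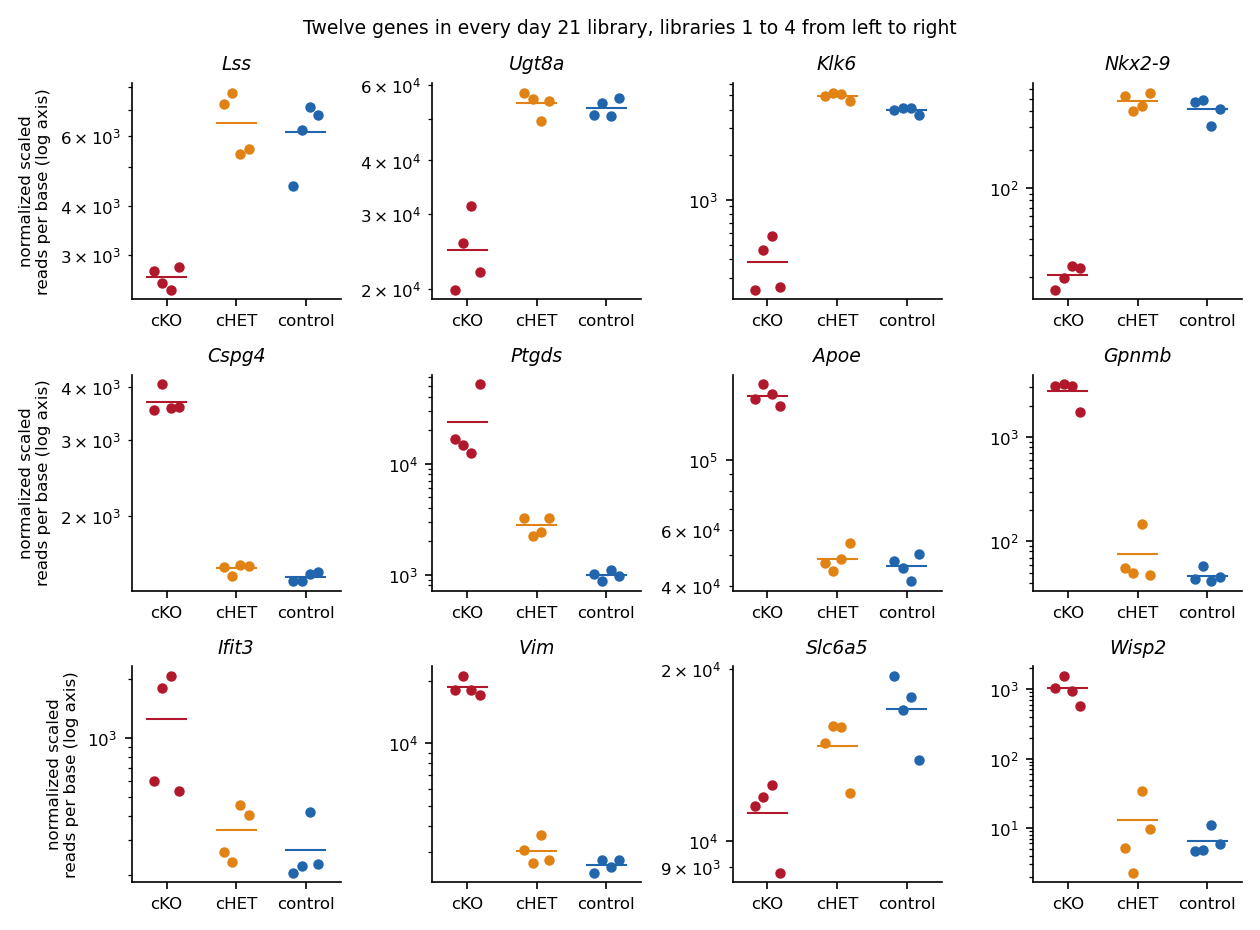
Level in normalized scaled reads per base (log axis, a separate scale in each panel) of 12 genes in the 4 cKO, 4 cHET and 4 control libraries, with the mean as a line. Klk6 and Nkx2-9 are lower and Apoe, Gpnmb, Vim and Wisp2 higher in every cKO library than in every other library, and Ptgds stands in 3 separate steps.

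Myelin proteins split in both directions. Of 15 genes 6 fell and 5 rose, with a median of -0.14. Mbp, myelin basic protein, was at 1186339, 1237788, 1184978 and 1403135 in cKO and 1510806, 1543286, 1338114 and 1531333 in control libraries and was not called (-0.24 ± 0.10, adjusted p = 0.079). It passed under 7 alternatives, among them robust moderation (adjusted p = 0.013), median-of-ratios scaling (adjusted p = 0.040) and leaving out cKO 4 (-0.30, adjusted p = 0.026), and not under the others. Mog, a surface protein of the myelin sheath, was not called (-0.07 ± 0.06, adjusted p = 0.47). Trf, transferrin, which oligodendrocytes secrete, fell by 0.55 ± 0.10. Cldn11, the claudin of myelin tight junctions, rose by 0.37 ± 0.08 (adjusted p = 0.0022), Tspan2, a tetraspanin, by 0.31 and Opalin, a myelin glycoprotein, by 0.33. Cd9, a tetraspanin of myelin that microglia also express, was at 6058, 7631, 7894 and 6404 in cKO and 2855, 2994, 3079.6 and 3413 in control libraries (1.18 ± 0.09). Mobp, a protein of the myelin major dense line, rose by 0.27 ± 0.07, and its cHET values of 46597 to 53242 were also above the control range of 35964 to 40658.

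Genes of gap junctions and the node showed 5 falls and 2 rises among 12. Gjb1, the connexin 32 of oligodendrocytes, was at 1823, 1884, 2341 and 2046 in cKO and 4613, 4721, 4644 and 5069.8 in control libraries (-1.24 ± 0.07, adjusted p = 1.6e-08). Gjc3, connexin 29 of myelin, went the other way and rose by 0.48 ± 0.05 (adjusted p = 3.6e-06). Ermn, ermin, a cytoskeletal protein of myelinating cells, fell by 1.12 ± 0.09. Hapln2, a link protein of the nodal matrix, fell by 0.78 ± 0.06 in cKO (adjusted p = 3.3e-07) but rose by 0.44 ± 0.06 in cHET against control (adjusted p = 0.039). The cHET call ended with no filter, after quantile normalization, with sex as a covariate, without cKO 2 and cKO 3, and without any 1 of cKO 1, cKO 3, cHET 1, cHET 2, cHET 3, control 3 and control 4. It lay at 3498 to 3907 in cKO, at 8095 to 9271 in cHET and at 6083 to 7028 in control libraries.

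Markers of the mature oligodendrocyte fell in 11 of 18 cases, with a median of -0.53. Gsn, gelsolin, an actin-severing protein needed for wrapping, was at 5620.2, 6387, 6943 and 5595 in cKO and 15957, 17415, 15251 and 17049.7 in control libraries (-1.42 ± 0.08, adjusted p = 8.0e-09). Anln, anillin, a septin scaffold of myelin, was at 259.8, 251, 259 and 301 in cKO and 699, 826, 656 and 699 in control libraries (-1.43 ± 0.09, adjusted p = 6.0e-08). Apod, a lipocalin, and Hhip, an antagonist of hedgehog ligands, fell by 0.84 and 0.78. S100b, a calcium-binding protein of oligodendrocytes and astrocytes, fell by 0.69 ± 0.05. Ptgds, the prostaglandin D synthase of oligodendrocytes and meninges, moved the other way and was at 16756, 14729, 12475 and 51958 in cKO libraries, 3211, 2248, 2409.8 and 3251 in cHET and 1009, 876, 1111 and 964 in control libraries, with no overlap between genotypes. It rose by 4.34 ± 0.32 in cKO against control (adjusted p = 2.2e-07), and the cHET difference of 1.47 ± 0.32 was not called (adjusted p = 0.31). Without cKO 4, the highest library, the cKO change was 3.88 (adjusted p = 9.0e-10).

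Precursor markers were higher. Of 14 genes 9 rose and none fell, with a median of 0.39. Cspg4, the NG2 proteoglycan, was at 3527, 4053, 3579 and 3595 in cKO and 1415, 1411, 1462 and 1480.2 in control libraries (1.35 ± 0.05, adjusted p = 6.8e-10), a 2.56-fold ratio of means. Vcan, versican, C1ql1, a secreted complement-like protein, and Matn4, a matrilin, rose by 0.90, 0.75 and 0.66. Pdgfra, the PDGF receptor that defines precursors, was at 1164, 1187, 930.3 and 785 in cKO and 828, 853, 756 and 799 in control libraries and was not called (0.31 ± 0.13, adjusted p = 0.087). The lowest cKO value was that of cKO 4, without which it rose (0.43, adjusted p = 0.012). Of 12 markers of newly formed oligodendrocytes 7 rose, among them Casr, the calcium-sensing receptor (0.89 ± 0.15), Itpr2, an inositol trisphosphate receptor (0.66 ± 0.11), and Fyn, a kinase of process outgrowth (0.37 ± 0.07). Enpp6, a choline phosphodiesterase that marks this stage, fell by 0.44 ± 0.08 (adjusted p = 0.0010).

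Transcription factors of the lineage gave 5 rises and 2 falls among 17. Zfp488, a factor that promotes differentiation, was at 3162, 3140.2, 3219 and 3370.0 in cKO and 1739, 1949, 1643 and 1853 in control libraries (0.85 ± 0.07, adjusted p = 3.9e-07). Olig1, Tcf7l2 and Myrf, which act at specification and at the onset of myelination, rose by 0.53, 0.72 and 0.33, and Id4, an inhibitor of such factors, rose by 0.45. The 2 that fell were Nkx2-9, described above, and St18 (-0.54 ± 0.13). Sox10, which the lineage expresses at all stages, was at 12231, 11119, 11449 and 13419 in cKO and 10279, 11525, 8912 and 11414 in control libraries and was not called (0.20 ± 0.08, adjusted p = 0.098). Olig2 has no per-library values here, and the authors' deposited table gives a log2 effect of 0.52 with a q of 0.0061.

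**Figure D4:**
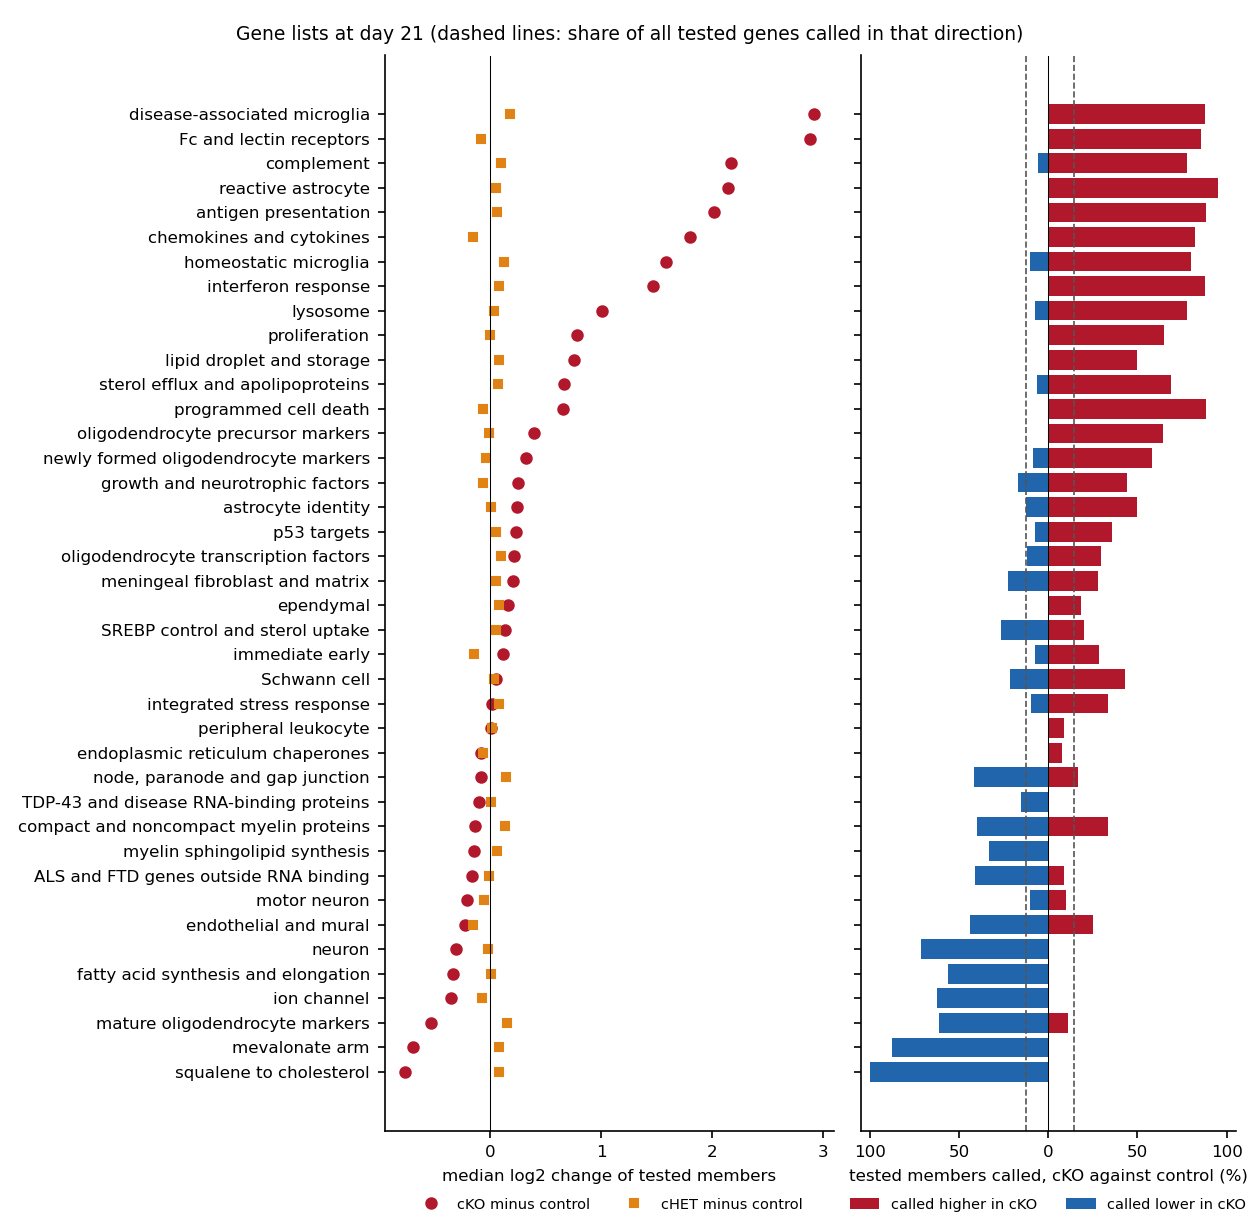
Median log2 change of the tested members of 40 gene lists (left, red circles for cKO minus control, orange squares for cHET minus control) and the share of members called higher (red) or lower (blue) in cKO against control (right, %), with dashed lines at 14.6% and 12.3%, the shares over all tested genes. The disease-associated microglia, Fc and lectin receptor, complement, reactive astrocyte and antigen presentation lists are at the top. The squalene to cholesterol, mevalonate arm, mature oligodendrocyte, ion channel, fatty acid and neuron lists are at the bottom.

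Microglial genes were much higher. Of 25 genes of disease-associated microglia, a state that microglia take on around dying neurons and damaged myelin, 22 rose and none fell. The median was 2.92 against control and 2.61 against cHET, and 0.18 in cHET against control. Trem2, the lipid-sensing receptor that drives this state, was at 3394, 4173, 3917 and 2792 in cKO and 282, 348, 275 and 374 in control libraries (3.47 ± 0.14, adjusted p = 7.9e-10). Tyrobp, its signalling adaptor, was at 2460.2, 3234, 3411 and 2529.8 in cKO and 228, 226, 237 and 309 in control libraries (3.54 ± 0.12, adjusted p = 2.7e-10). Lyz2, lysozyme, was at 6207, 6005, 6890.5 and 3393 in cKO and 115, 162, 144 and 188 in control libraries (5.17 ± 0.26, adjusted p = 5.0e-09), and cKO 4 was lowest again. Clec7a, the lectin dectin-1, Cd68, a lysosomal membrane protein, and Igf1, insulin-like growth factor 1, rose by 5.34, 3.43 and 3.77. Spp1, osteopontin, which motor neurons also make, was at 10481 to 18564 in cKO and 2691 to 3351 in control libraries (2.30 ± 0.15). Lgals3, galectin 3, has a different mean in the 2 kinds of file, and the authors' deposited table gives a log2 effect of 4.59 with a q of 1.2e-40. Timp2, an inhibitor of matrix proteases, was not called (0.14 ± 0.06, adjusted p = 0.11) but rose without cKO 4 (0.19, adjusted p = 0.0086).

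Genes of resting microglia rose in 16 of 20 cases, by less, with a median of 1.58. Csf1r, the receptor on which microglia depend, was at 13450.3, 17249.6, 15412 and 12313 in cKO and 4054, 4655, 3903 and 4290.0 in control libraries (1.78 ± 0.09, adjusted p = 6.8e-09), and Cx3cr1, the fractalkine receptor, at 5157, 6892, 6205 and 4838 in cKO and 1726, 1929.9, 1841 and 1789.9 in control libraries (1.65 ± 0.09). Aif1, which encodes the marker IBA1, rose by 2.45 ± 0.20. Against this direction, P2ry12 and Sall1 fell. P2ry12, the purine receptor of resting processes, was at 957, 1158, 1055 and 922 in cKO and 1493, 1633, 1212 and 1519.6 in control libraries (-0.51 ± 0.09, adjusted p = 7.6e-04), and Sall1, a factor of microglial identity that other glia also express, fell by 0.25 ± 0.05. Tmem119 was at 201, 357, 344 and 407 in cKO and 396, 362, 381 and 334 in control libraries and was not called (-0.21 ± 0.17, adjusted p = 0.41). Levels of these marker genes thus did not keep a common ratio between cKO and control cord.

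Complement, Fc receptors and chemokines followed. Of 18 complement genes 14 rose and 1 fell, with a median of 2.17. C1qa, a chain of the initiating complex, was at 7199, 9931, 9975 and 7575 in cKO and 986, 1101, 906 and 1072 in control libraries (3.08 ± 0.11, adjusted p = 2.7e-10), and C1qb and C1qc rose by 2.92 and 3.05. C3, the central component, and C3ar1, a receptor for its fragment, rose by 3.12 ± 0.17 and 4.19 ± 0.21, and Serping1, the C1 inhibitor, by 2.46. Cd55, which breaks up convertases on host cells, fell by 0.47 ± 0.12 (adjusted p = 0.0087). Of 21 Fc and lectin receptors 18 rose and none fell. Fcgr2b, the inhibitory IgG receptor, was at 1259, 1355, 1329.6 and 967 in cKO and 41.9, 66.4, 59.8 and 82.1 in control libraries (4.31 ± 0.19). Siglec1, a lectin of activated macrophages, rose by 4.96 ± 0.39. Of 17 tested chemokines and cytokines 14 rose. Ccl3, which attracts monocytes, was at 575, 416, 427 and 410.5 in cKO and 7.46, 14.3, 14.2 and 16.9 in control libraries (5.10 ± 0.31, adjusted p = 2.2e-08), and Ccl4, its neighbour, rose by 3.89. Without cKO 2 and cKO 3 the chemokine count was 9, and with a minimum mean of 50 it was 8. Of 16 genes listed for blood leukocytes 11 were tested and 1 rose, beside 14.6% of all tested genes. It was Ptprc (2.79 ± 0.18), which microglia also express. The neutrophil gene S100a8 and the T cell gene Cd3g did not reach the minimum level.

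Interferon-stimulated genes rose in 22 of 25 cases, none fell, and the median was 1.47. The cKO libraries were not alike in this. Ifit3, an antiviral effector, was at 600.3, 1805, 2086 and 537 in cKO and 205, 222, 419.9 and 228 in control libraries (2.03 ± 0.41, adjusted p = 0.0018), so cKO 2 and cKO 3 were high and cKO 1 and cKO 4 lower. Oasl2, an oligoadenylate synthase relative, was at 162, 610.4, 596 and 187 in cKO and 54.2, 55.3, 137 and 55.9 in control libraries (2.22 ± 0.42, adjusted p = 0.0013). Bst2, tetherin, was at 324, 830.4, 1049.6 and 424 in cKO and 68.3, 66.2, 169.9 and 64.3 in control libraries, with the same 2 cKO libraries high and control 3 above the other controls (2.80 ± 0.44, adjusted p = 2.6e-04). Library 3 was also the highest of its genotype in cHET, at 82.2, 70.7, 245 and 97.2 for Bst2. The summed level of the list was 8154 to 17940.2 in cKO and 4511 to 6721 in control libraries. Without cKO 2 and cKO 3, 13 of the 25 genes were called and the median was 0.92. These 2 mice are the male cKO mice and the 2 with the lowest caudal Hox values. The test of the difference between sexes (the change in males minus that in females) called no gene of the list and none of 17989 (0.0%), with 1007 genes under an unadjusted p of 0.05 by limma and 0 to 2 genes called under the alternatives. The median of this difference was 0.76 for the list and 0.04 over all tested genes. With 2 mice per sex and genotype, the lack of calls does not show that the sexes were alike. Lgals3bp, a secreted glycoprotein that interferon induces, had the smallest p of the list (2.88 ± 0.27, adjusted p = 1.8e-06). Mx1 and Zbp1, sensors and effectors against viral RNA, rose by 2.04 and 3.66.

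Interferon acts through transcription factors, STAT2 and IRF9 among them, at elements whose core is a pair of GAAA runs with 2 bases between them. This pattern, searched on both strands, was found in 10 of 17 list genes that had a RefSeq promoter window and in 3.80% of all 12741. The 3 of these 10 with the smallest p are shown in part, with the matches in capitals. The stretches are chr8:71537543-71537642 (minus strand) for Bst2, chr5:120907486-120907585 (minus strand) for Oas1a and chr19:34583333-34583432 (plus strand) for Ifit3.
Bst2: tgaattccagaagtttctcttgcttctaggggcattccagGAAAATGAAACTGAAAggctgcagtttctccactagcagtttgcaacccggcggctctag
Oas1a: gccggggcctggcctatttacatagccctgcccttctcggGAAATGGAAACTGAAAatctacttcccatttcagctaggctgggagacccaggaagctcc
Ifit3: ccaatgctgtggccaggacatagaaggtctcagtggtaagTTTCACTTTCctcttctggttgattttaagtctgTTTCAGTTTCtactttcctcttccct
In Bst2 and Oas1a the 2 matches share bases and form 1 block, and in Ifit3, where they read on the other strand, they stand apart. Oas1a, an oligoadenylate synthase, was at 113, 334, 323 and 121 in cKO and 10.7, 30.4, 44.3 and 16.7 in control libraries (3.11 ± 0.52, adjusted p = 4.5e-04).

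Antigen presentation rose in 15 of 17 tested genes, with a median of 2.02. B2m, the light chain of class I molecules, was at 7876, 12182, 13928 and 8617 in cKO and 2305, 2135, 2702 and 2241 in control libraries (2.15 ± 0.17, adjusted p = 3.5e-07). The class I genes H2-K1 and H2-D1 rose by 1.88 and 1.51, members of a family of near copies whose reads can be split between them. Psmb8, an immunoproteasome subunit, and Tap1, the peptide transporter, rose by 2.68 and 2.07. Cd74, the class II invariant chain, was at 298, 395, 334 and 219.7 in cKO and 50.6, 80.8, 56.4 and 73.4 in control libraries (2.24 ± 0.25, adjusted p = 1.4e-05).

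**Figure D5:**
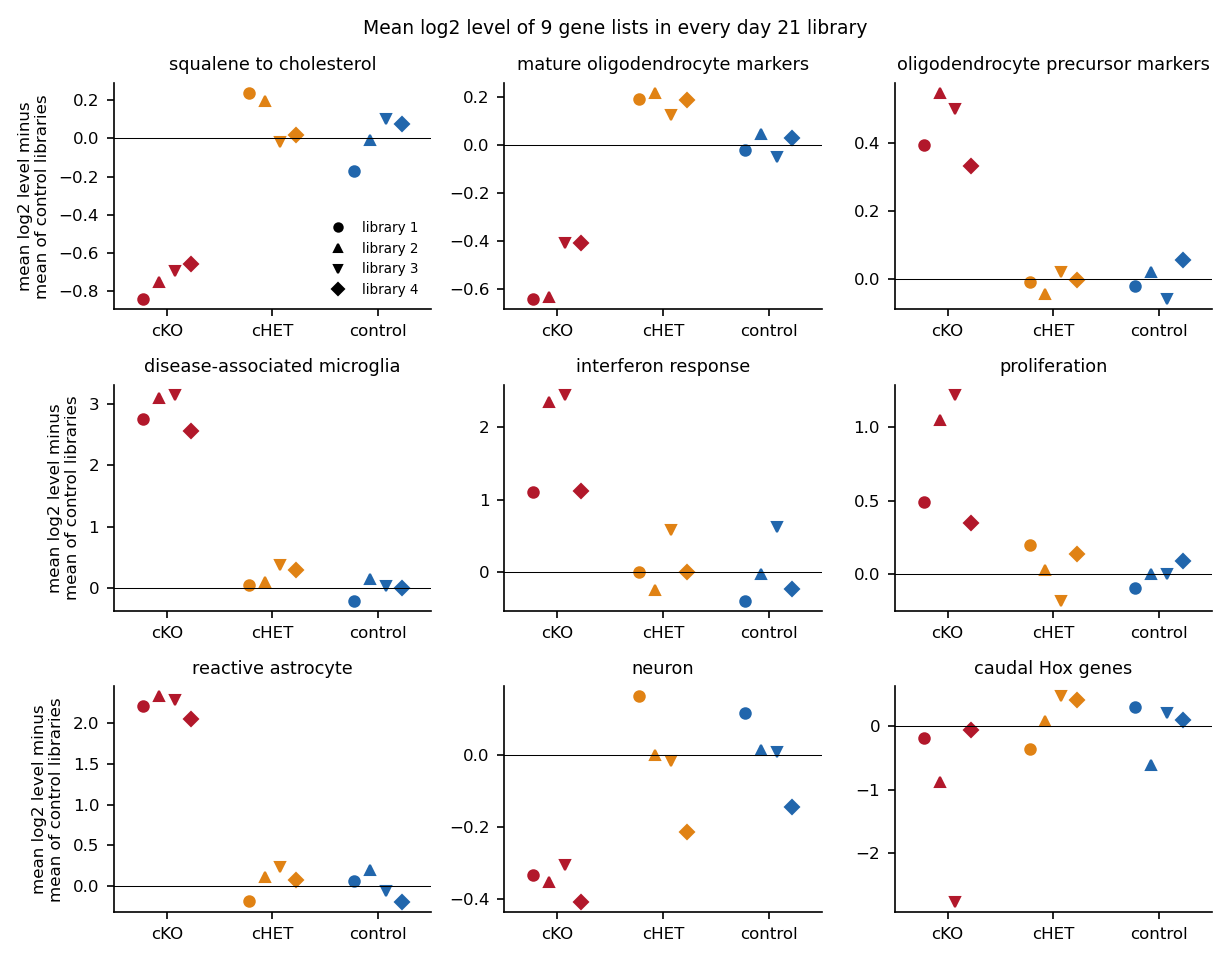
Mean log2 level of 9 gene lists in each library minus the mean of the control libraries, for cKO, cHET and control, with a symbol for each library number. The interferon and proliferation lists are highest in cKO libraries 2 and 3, and the caudal Hox list is lowest in the same libraries.

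Lysosomal genes rose in 21 of 27 cases, and the summed level was 299418 to 361639 in cKO against 162302 to 171999 in control libraries. Ctsd (chromosome 7, 142375911 to 142388038), the aspartic protease cathepsin D, was at 76379, 97744, 111819 and 77059 in cKO and 15449, 15216, 14425 and 14998 in control libraries (2.58 ± 0.10, adjusted p = 7.2e-10), the third largest gain of level among called genes after Gfap and Apoe. Ctss and Ctsz, cathepsins of microglia, rose by 2.92 and 2.92, and Grn, which encodes progranulin and is mutated in frontotemporal dementia, by 2.48 ± 0.09 (adjusted p = 2.7e-10). Psap, the precursor of saposins, rose by 0.37 ± 0.05. Ctsk, another cysteine cathepsin, and Atp6v1a, a subunit of the proton pump that neurons express strongly, fell by 0.42 and 0.30. Tfeb, the transcription factor of lysosome formation, was not called (-0.15 ± 0.10, adjusted p = 0.31).

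Genes listed for reactive astrocytes rose in 19 of 20 cases, with a median of 2.14. Levels in whole cord do not show which cells made these transcripts. Gfap (chromosome 11, 102887336 to 102900912), the intermediate filament of astrocytes, had the largest gain of level, at 233189, 268919, 260560.5 and 235146 in cKO and 84107, 92939, 85025 and 91273 in control libraries (1.50 ± 0.07, adjusted p = 2.8e-09). Vim, vimentin, was at 18027, 21127, 18095 and 17031 in cKO and 2379, 2747, 2539.8 and 2734 in control libraries (2.83 ± 0.09, adjusted p = 2.7e-10). Serpina3n, a secreted protease inhibitor, was at 17043, 16316, 13763 and 14506 in cKO and 1759.5, 2010.0, 1805 and 1709 in control libraries (3.08 ± 0.11, adjusted p = 2.7e-10). Hspb1, a small heat shock protein, Timp1, a protease inhibitor, and Aspg, an asparaginase, rose by 2.84, 3.67 and 2.73. Stat3, the factor that many reactive genes need, was the one member not called (0.19 ± 0.08, adjusted p = 0.078), and it passed without control 1 (adjusted p = 0.017). Genes that astrocytes carry at rest moved less, with 8 rises and 2 falls among 16 and a median of 0.24. Sox9, an astrocyte transcription factor, rose by 0.70 ± 0.08, Aqp4, the water channel of endfeet, by 0.64 ± 0.09, and Aldh1l1, a folate enzyme, by 0.53 ± 0.08. Slc1a2, the main glutamate transporter, was at 2950.3, 3617, 3401 and 2879.8 in cKO and 3692, 3714, 3246 and 3208 in control libraries and was not called (-0.11 ± 0.09, adjusted p = 0.4). Mt1, a metal-binding metallothionein and 1 of the 8 largest gains, was at 38007, 37093, 30249 and 47358 in cKO, 18645, 18824, 18728 and 16818 in cHET and 13483, 12122, 9066 and 12109 in control libraries, in 3 steps that did not overlap (1.70 ± 0.13 in cKO against control, adjusted p = 2.1e-07).

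Stress genes were mixed and cell death genes mostly higher. The integrated stress response list had 7 rises and 2 falls among 21, with a median of 0.01. Atf3, a factor that many kinds of injury induce, was at 587, 516, 597 and 422 in cKO and 53.1, 70.9, 35.8 and 73.1 in control libraries (3.22 ± 0.22, adjusted p = 8.6e-08), and Nupr1, a stress-induced nuclear protein, and Ddit4, an inhibitor of mTOR, rose by 2.05 and 1.04. Ddit3, which encodes CHOP, a target of ATF4, was not called (-0.15 ± 0.15, adjusted p = 0.52). Among 13 chaperones of the endoplasmic reticulum 1 rose, beside 14.6% of all tested genes. Hspa5, BiP, was at 2217, 2353, 2819 and 2062 in cKO and 4395, 3148, 2016 and 2339 in control libraries (-0.28 ± 0.20, adjusted p = 0.36). Of 17 cell death genes 15 rose. Tnfrsf1a, the receptor for tumour necrosis factor, was at 548, 663, 622 and 661 in cKO and 240.0, 208, 231 and 236 in control libraries (1.44 ± 0.09, adjusted p = 2.2e-08), Casp8, its initiator caspase, rose by 1.35 ± 0.11, and Pycard and Casp1, parts of the inflammasome, by 2.51 and 1.66. Gsdmd, the pore former of pyroptosis, has no per-library values here, and the authors' deposited table gives a log2 effect of 1.97 with a q of 4.2e-34. Mlkl, the effector of necroptosis, was not called (0.26 ± 0.46, adjusted p = 0.74). Ripk3, of the same list, did not reach the minimum level and is not among the 17. Its mean differs between the 2 kinds of file. For Ripk3 the authors' deposited table gives a log2 effect of 2.001 with a q of 1.2e-04. Of 14 p53 targets 5 rose and 1 fell. Those that rose included Bbc3, a killer protein also named PUMA (0.66 ± 0.15), Bax, a pore-forming protein of mitochondria (0.39 ± 0.09), and Ccng1, a cyclin (0.43 ± 0.09). In cKO against cHET 2 of these 14 targets were called, beside 22.6% of all tested genes. The median was 0.23 against control and 0.11 against cHET. Cdkn1a, the p21 inhibitor, has no per-library values here, and the authors' deposited table gives a log2 effect of 1.78 with a q of 7.0e-09.

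Proliferation genes rose in 13 of 20 cases. Cdk1, the mitotic kinase, was at 83.1, 121, 157 and 84.1 in cKO and 35.9, 37.3, 21.4 and 39.0 in control libraries (1.71 ± 0.26, adjusted p = 2.1e-04), and Mki67, the Ki-67 protein of dividing cells, at 308, 491, 594 and 195 in cKO and 124, 180.4, 137 and 170.0 in control libraries (1.26 ± 0.32, adjusted p = 0.0084). As with interferon genes, cKO 2 and cKO 3 were the highest, and without them the count was 4 and Mki67 was not called (adjusted p = 0.13). The change in males minus that in females had a median of 0.69 for this list. Of 18 growth factors 8 rose and 3 fell, and without cKO 2 and cKO 3 the counts were 4 and 1. Tgfb1, which microglia need, and Cntf, a factor of astrocytes and Schwann cells, rose by 1.57 ± 0.12 and 1.12 ± 0.13. Vegfa, the growth factor of vessels, was at 1324, 1191, 1279.9 and 1290.2 in cKO and 1589, 1679, 1581 and 1752 in control libraries (-0.38 ± 0.07, adjusted p = 0.0010).

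RNA-binding genes linked to the same diseases were examined beside Tardbp. Of 13 tested genes 2 fell, Tardbp and Atxn2, and none rose, and Matr3 was not called (-0.09 ± 0.07, adjusted p = 0.37). Over all tested genes 12.3% fell and 14.6% rose, so the number of falls is near the share of all genes. Atxn2 (-0.25 ± 0.08, adjusted p = 0.028) has a different mean in the 2 kinds of file, and in the authors' deposited table it does not pass (log2 effect -0.22, q of 0.11). Without any 1 of control 1, control 2, control 4, cKO 2 and cKO 3 its adjusted p was above 0.05 as well, at up to 0.093. Without cKO 2 and cKO 3 together the Atxn2 change was -0.11 (adjusted p = 0.32). Ang, an angiogenic ribonuclease, has no per-library values here, and the authors' deposited table gives a higher level in cKO, with a log2 effect of 2.15 and a q of 2.3e-21. For Hnrnpa1, a splicing factor whose mean differs between the 2 kinds of file, the authors' deposited table gives 0.24 with a q of 0.0029. Of 22 other genes linked to amyotrophic lateral sclerosis or frontotemporal dementia 9 fell and 2 rose. Those that rose were Grn and Pfn1, profilin (0.40 ± 0.07). Sort1, sortilin, the receptor that clears progranulin and whose transcript TDP-43 is known to splice, was at 11890.0, 12114, 13714 and 10726 in cKO and 18750.2, 17906, 16741 and 16218 in control libraries (-0.53 ± 0.07, adjusted p = 1.1e-04). Unc13a, a synaptic priming factor, fell by 0.43 ± 0.08. Mapt, the tau gene, fell by 0.35 ± 0.06. Gene-level values do not resolve splicing.

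Neuronal genes were lower by small amounts. Of 21 tested genes 15 fell and none rose, with a median of -0.31 in cKO against control, -0.28 against cHET and -0.02 in cHET against control. Gad1, which makes GABA, was at 2750.0, 2672, 2764 and 2531 in cKO and 3922, 3413, 3451 and 3479 in control libraries (-0.41 ± 0.05, adjusted p = 5.6e-05). Slc17a6, the glutamate transporter of vesicles, was at 2478, 2279.7, 2484 and 2214 in cKO and 3266, 3106, 3202 and 3023 in control libraries (-0.41 ± 0.06, adjusted p = 7.6e-05), and Syp, synaptophysin, fell by 0.36 ± 0.05. Slc6a5, the glycine transporter of inhibitory neurons, was at 11495, 11930.4, 12523 and 8791 in cKO and 19431, 16908, 17842 and 13844 in control libraries (-0.61 ± 0.12, adjusted p = 0.0021), with library 4 lowest in both groups. Nefl and Nefm, neurofilament chains among the 8 largest losses of level, fell by 0.31 ± 0.08 and 0.31 ± 0.08, and were not called without cKO 2 and cKO 3 (adjusted p = 0.077 and 0.054). Glra1, the glycine receptor, was at 3081, 3264, 3268 and 684 in cKO and 6744, 5853, 6151 and 3013 in control libraries, where library 4 was again the lowest of its group, and was not called (-1.26 ± 0.51, adjusted p = 0.085). It fell without cHET 4 (adjusted p = 0.039), which was low too, with sex as a covariate (adjusted p = 0.040), without cKO 2 and cKO 3 (-1.84, adjusted p = 0.046), and without all 3 libraries numbered 4 (-0.96, adjusted p = 9.5e-06). Without the 3 libraries numbered 4, 19 of 21 neuronal genes fell, and without cKO 2 and cKO 3, 10. Beside these falls stand position genes of the cord, of which 3 of 10 fell (1 without cKO 2 and cKO 3), Hoxc10 at 1408, 1018, 895 and 1758 in cKO and 2238, 1820.0, 2060.0 and 1773 in control libraries (-0.68 ± 0.19, adjusted p = 0.015). Without cKO 2 and cKO 3 Hoxc10 was not called (adjusted p = 0.21). Their part in the neuronal result was not tested.

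Ion channels fell in 10 of 16 cases and rose in none. Hcn2, a pacemaker channel that oligodendrocytes of the cord also express, had the largest fall of those called, at 7361, 9285, 10775 and 9344 in cKO and 18002, 17296, 16141 and 16019 in control libraries (-0.89 ± 0.10, adjusted p = 9.1e-06). Kcnc2, a potassium channel of fast firing, fell by 0.48, and Scn2a, a sodium channel of unmyelinated axons, by 0.36. Kcnj10, the potassium channel of glia, was not called (-0.14 ± 0.11, adjusted p = 0.39) but fell without cKO 2 and cKO 3 (-0.34, adjusted p = 0.022). Motor neuron genes showed 1 rise, Spp1, and 1 fall, Chodl, a marker of fast motor neurons (-0.60 ± 0.17, adjusted p = 0.016), among 10. Over all tested genes 14.6% rose and 12.3% fell, so these counts are near the share of all genes. The Chodl call ended without control 2 (adjusted p = 0.054), and without the libraries numbered 4 the number of falls was 3. Mnx1 and Isl1, transcription factors of motor neurons, were not called (-0.28 ± 0.16, adjusted p = 0.22, and -0.33 ± 0.25, adjusted p = 0.38). Chat, the acetylcholine synthase, has no per-library values here, and the authors' deposited table gives a log2 effect of -0.25 with a q of 0.24.

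Vascular genes showed 7 falls and 4 rises among 16, with 2 rises without control 3 or without cKO 2 and cKO 3. The median was -0.23 in cKO against control, -0.05 against cHET and -0.16 in cHET against control. In cKO against cHET 6 of the 16 were called, beside 22.6% of all tested genes. Kdr, the VEGF receptor of endothelium, was at 519, 579, 611 and 413 in cKO, 626, 552, 669.9 and 755 in cHET and 1313, 1223, 1020.0 and 860.5 in control libraries. It fell by 1.05 ± 0.15 in cKO against control (adjusted p = 8.8e-05), while the cHET difference of -0.75 ± 0.15 was not called (adjusted p = 0.28) and cKO against cHET gave -0.30 ± 0.15 (adjusted p = 0.17). Cdh5, the endothelial cadherin, and Vtn, vitronectin of pericytes, fell by 0.52 and 0.43. Tagln, a protein of smooth muscle that other cells make in repair, rose by 1.40 ± 0.18. Among 18 meningeal and matrix genes 5 rose and 4 fell. Fn1, fibronectin, rose by 1.64 ± 0.15, to 3362 to 5249 in cKO against 1062 to 1630.3 in control libraries, whereas the fibroblast genes Lum, lumican, and Col3a1, a fibrillar collagen, fell by 1.27 ± 0.29 and 0.90 ± 0.21. These counts were 8 rises without cKO 4 or without the libraries numbered 4, and 2 falls without control 2.

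Markers of Schwann cells, ependyma and blood, which a cord dissection can include, are given next. Among 14 Schwann cell genes 6 rose and 3 fell. Ncmap, a protein of peripheral myelin, was at 415, 363, 396 and 602 in cKO and 117, 112, 110.2 and 82.5 in control libraries (2.05 ± 0.17, adjusted p = 7.6e-07), and Egr2, the Krox-20 factor that Schwann cells and activated microglia use, at 54.2, 52.7, 54.1 and 68.0 in cKO and 2.23, 14.8, 3.9 and 7.57 in control libraries (3.21 ± 0.57, adjusted p = 7.6e-04). Of 11 ependymal genes 2 rose, which is near the 14.6% of all tested genes that rose. Foxj1, the factor of motile cilia, was not called (0.13 ± 0.08, adjusted p = 0.25). None of 6 erythrocyte genes was called, with a summed level of 10402 to 38018 in cKO and 23334 to 41688 in control libraries. Of 14 immediate early genes 4 rose and 1 fell, beside 14.6% and 12.3% of all tested genes. Junb, a subunit of AP-1, was among those that rose (0.84 ± 0.14). Heat shock genes, listed after their values were seen, fell in 4 of 6 cases, beside 12.3% of all tested genes. Hsp90aa1, a cytosolic chaperone, was among them (-0.27 ± 0.05, adjusted p = 0.0018). The cKO and control libraries did not overlap for 1 of the 6. The median was -0.51 in cKO against control, -0.21 against cHET and -0.22 in cHET against control. The mean log2 level of the list was 11.05 to 11.46 in cKO libraries. Control 3, at 11.08, lay in that range, and the other controls were at 11.97 to 12.36.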

How the data were processed

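Total RNA of flash-frozen cord was sequenced after a TruSeq preparation, per the labels. Per the submitters' processing notes, the authors used kallisto 0.43.0 and sleuth 0.28.1 with GRCm38, and the deposited signal per gene and library is normalized scaled reads per base. Signal per length already scaled by the authors holds no read counts, so no count model was used, and a fold on log2(value + 0.5) understates the change of low genes. The authors' deposited tables give a natural log effect and a p-value and q-value per gene for each pair of genotypes. Effects were divided by the natural log of 2. Of 18101 genes in that table for cKO against control, 16483 had the same mean in both kinds of file (within 1e-06 on the natural log scale), 901 differed and 717 had no per-library values. There, q was under 0.05 for 5126 genes, 2753 higher and 2373 lower, and 95.6% of the called genes it holds were among them.

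Genes that reached 5 in at least 4 day 21 libraries were fitted with limma 3.58.1 (R 4.3.3, limma-trend) on the 12 libraries, and tables were made with python 3.11.15, pandas 2.3.3 and numpy 2.4.6. The script was tested on simulated data. Symbols were found for 25026 of 25127 genes, and coordinates are those of GENCODE M21 on GRCm38. Libraries were numbered in the order of their deposit, and the labels pair no libraries across genotypes. Replicates are separate mice, per the labels. The members of the comparison and the gene lists were chosen with earlier results of these data known. Named genes were drawn from Tardbp and Cnp, the 12 genes with the highest and the 12 with the lowest log2 change (called, no overlap of groups, higher group averaging 20 or more), the 8 largest gains and 8 largest losses of mean level, up to 6 members per list by p, members called against their list or without per-library values, genes called in the same direction in cKO and cHET against control (Cnp alone), and other list members. Hoxc11 and the heat shock genes were added after their values were seen. Some list members are counted but not reported here. Where genes sit in more than 1 list they count in each.

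Alternatives were pseudocounts of 0.05 and 5, no filter, a minimum mean of 50, array weights, quantile normalization, median-of-ratios scaling, cKO and control libraries fitted alone, robust moderation, sex as a covariate, the authors' deposited table, only genes with the same mean in both files, and each library left out in turn. Leaving out cKO 2 and cKO 3 together, or the 3 libraries numbered 4, was chosen after seeing the data.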

Additional observations from a re-analysis of the deposited data

Results flagged for a closer look

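In groups of 4, a library was picked out when its gap to the nearest other library, divided by the range of the group, was above Dixon's 95% critical value. Among 500 groups of the 2 genotypes, from the genes named above and the mean log2 levels of the gene lists, 30 were picked out. Chance gives about 1 in 20 such groups. The ratio follows each level in brackets, and levels are normalized scaled reads per base. cKO 4 stood below the other cKO libraries for Apoc4 at 88.6 (0.926), Atp6v0d2 at 27.1 (0.874), Glra1 at 684 (0.962), Gpnmb at 1720.3 (0.929) and Timp2 at 11328 (0.89). cKO 4 stood above the other cKO libraries for Egr2 at 68.0 (0.894), Pmvk at 1983 (0.928) and Rps27a-ps2 at 1.7 (0.85). cKO 1 stood above the other cKO libraries for Ccl3 at 575 (0.886). cKO 2 stood above the other cKO libraries for Cspg4 at 4053 (0.862), Fyn at 13798 (0.945) and Itpr2 at 1176 (0.843). cKO 3 stood below the other cKO libraries for Aspg at 406 (0.842). cKO 3 stood above the other cKO libraries for Cd36 at 81.8 (0.97). Control 3 stood below the other control libraries for Cdk1 at 21.4 (0.858), Cdkn1c at 915 (0.896), Mbp at 1338114 (0.851) and Tcf7l2 at 269 (0.835). Control 3 stood above the other control libraries for Bst2 at 169.9 (0.937), Ifit3 at 419.9 (0.852), Oasl2 at 137 (0.968) and Srebf1 at 1019 (0.986). Control 1 stood below the other control libraries for Aqp4 at 30270.0 (0.856) and Cyp51 at 2567 (0.926). Control 1 stood above the other control libraries for Gad1 at 3922 (0.863). Control 2 stood below the other control libraries for Hoxc11 at 66.4 (0.973). Control 4 stood above the other control libraries for Tyrobp at 309 (0.845). Of the lists, the SREBP and sterol uptake list was high in cKO 4 (ratio 0.853), the cell death list was high in control 1 (ratio 0.848) and the endothelial and mural list was low in control 4 (ratio 0.846). The 3 interferon genes Bst2, Ifit3 and Oasl2 were picked out in the same control library, control 3. No gene passed the test of a knockout difference between males and females.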

How the results depend on the processing

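In all, 26 alternatives were tried, of which 2 were chosen after seeing the data. Of 203 named genes with a test, 185 kept their direction and side of the threshold throughout, Tardbp and Cnp among them. The cKO against control count ran between 3961 (without cKO 2 and cKO 3) and 5439, and the cKO against cHET count between 3130 and 4613. The count in cHET against control, 2 genes, was 1 with no filter on low values, after quantile normalization, with sex as a covariate and without cKO 2 and cKO 3, 15 with array weights, 30 without the libraries numbered 4 and 35 in the authors' deposited table. Leaving out 1 library gave 1 to 26, the highest without cHET 4. The test of the difference between sexes, with no call, gave 1 with no filter and 1 without the libraries numbered 4, and 0 to 2 when 1 library was left out. None of the genes called changed sign. Of those not called, Fasn changed to 0.037 and Hoxc11 to 0.16 without cKO 2 and cKO 3. Mbp was at 0.00 after quantile normalization, which gives the gene of the highest rank 1 value in every library. Tmem119 changed to 0.0051 without cKO 1 (-0.33 to 0.0051 when 1 library was left out). Apart from Mbp, the cause was not tested. Of 47 list medians 8 changed sign somewhere, and the median over all genes lay between -0.07 and 0.01. No paired analysis was possible because the labels give mouse numbers that differ between genotypes, and library numbers are only the order of deposit. Depth in reads is unknown, so counting error cannot be given, and with 4 libraries per genotype small differences such as those of Mog or Slc1a2 are not shown to be absent.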
